A study of Homo sapiens with 14 samples.

Results

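The genes described here are 9 members of the ATP-binding cassette (ABC) family that are named as drug efflux transporters: ABCB1, ABCG2, ABCC1, ABCC2, ABCC3, ABCC4, ABCC5, ABCC6 and ABCA4. They were taken by gene symbol from the annotation of the array, which held a row for 8 of the 9, each with a single row, among 18398 genes in all. ABCC6 had no row under its name and has no value here. OVCAR-3, a long-established line of human ovarian carcinoma cells, carries extra copies of the gene of cyclin E1, the activator of the kinase CDK2, and PHA-533533 is an inhibitor of CDK2. RNA was hybridised to 14 Affymetrix whole-transcript arrays. Of these, 5 were from resistant sublines named R1, R3, R5, R6 and R7 at passage 5 in 4 µM PHA-533533 (selected arrays), 5 from the same sublines at passage 10 or later in 0 µM (stable arrays), and 4 from parental OVCAR-3 cells in medium with 0 µM (parental arrays). The 5 sublines were derived separately from the same line. Inhibitor and passage changed together between selected and stable arrays and cannot be told apart. No label states that the 4 parental replicates were grown apart. Their part of the spread behind p-values against parental arrays may thus be technical. The fit of selected against stable arrays holds no parental array, and its spread is between single arrays of the 5 sublines.

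ABC transporters use the energy of ATP to move substrates across membranes. ABCB1 (P-glycoprotein, MDR1) and ABCG2 (breast cancer resistance protein) export a wide range of unmodified drugs and are the pumps most often linked to multidrug resistance. The ABCC members export mainly organic anions, many of them conjugates with glutathione, glucuronate or sulfate. A gain in the RNA of such a pump is a classic route by which cultured cancer cells under prolonged selection become resistant. ABCA4 differs from the rest, since it moves retinoid and lipid substrates in photoreceptors and is not known chiefly as a drug pump.

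The RefSeq promoter table (build GRCh38.p14) held a window of 300 bases, 250 before and 50 after the start, for 5 of the 8 measured members. Of these, 4 are shown, the pumps with signal at background (ABCB1, ABCG2 and ABCC2) beside ABCC4. Signal of ABCC4, like that of ABCC5, lay above background on 12 of 14 arrays. Where several starts were listed the window with most CpG was taken (1 of 2 for ABCB1 and 1 of 5 for ABCG2). Capitals mark matches on either strand to CCAAT, to the GC box GGGCGG, to the antioxidant response core TGACNNNGC, to the xenobiotic response core GCGTG and to the hypoxia response core ACGTG. No match to one of these motifs overlapped a match to another.
ABCB1, chr7:87600835-87601134, minus strand: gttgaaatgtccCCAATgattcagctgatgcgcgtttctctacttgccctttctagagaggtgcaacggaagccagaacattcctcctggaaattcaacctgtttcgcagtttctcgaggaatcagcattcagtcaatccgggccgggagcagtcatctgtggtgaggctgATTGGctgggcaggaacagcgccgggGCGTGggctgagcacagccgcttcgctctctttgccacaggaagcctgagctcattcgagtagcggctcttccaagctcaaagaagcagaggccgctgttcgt
ABCG2, chr4:88158590-88158889, minus strand: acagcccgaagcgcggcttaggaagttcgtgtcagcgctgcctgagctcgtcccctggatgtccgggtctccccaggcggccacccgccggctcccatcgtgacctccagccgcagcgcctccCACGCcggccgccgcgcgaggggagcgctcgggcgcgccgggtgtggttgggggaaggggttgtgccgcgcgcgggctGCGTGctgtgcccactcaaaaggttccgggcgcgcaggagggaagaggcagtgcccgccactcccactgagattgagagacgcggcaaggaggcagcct
ABCC2, chr10:99782390-99782689, plus strand: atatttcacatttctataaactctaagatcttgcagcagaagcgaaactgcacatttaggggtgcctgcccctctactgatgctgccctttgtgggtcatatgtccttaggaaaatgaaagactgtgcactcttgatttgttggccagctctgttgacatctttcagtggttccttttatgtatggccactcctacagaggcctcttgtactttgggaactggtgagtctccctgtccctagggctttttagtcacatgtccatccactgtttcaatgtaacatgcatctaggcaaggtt
ABCC4, chr13:95301402-95301701, minus strand: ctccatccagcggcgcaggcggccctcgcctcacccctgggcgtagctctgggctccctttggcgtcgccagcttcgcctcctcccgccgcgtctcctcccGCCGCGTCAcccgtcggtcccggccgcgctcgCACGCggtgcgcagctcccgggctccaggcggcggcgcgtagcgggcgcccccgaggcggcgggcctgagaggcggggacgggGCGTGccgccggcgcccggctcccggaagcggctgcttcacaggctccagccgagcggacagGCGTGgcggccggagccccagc
The ABCB1 window held 2 CCAAT matches and 1 GCGTG match, the ABCG2 window 2 GCGTG matches, and the ABCC4 window 3 GCGTG matches and 1 TGACNNNGC match. The ABCC2 window held none of the 5 motifs. The ABCC5 window, not shown, held 1 GGGCGG and 1 GCGTG match. Of 35116 windows of the same length in the table, 34.6% held CCAAT, 45.0% GGGCGG, 13.3% TGACNNNGC, 36.5% GCGTG and 21.4% ACGTG. CpG counts were 16 in ABCB1, 35 in ABCG2, 1 in ABCC2, 47 in ABCC4 and 26 in ABCC5, beside a median of 14 over all windows. A match to a motif describes these letters and is neither a binding site nor a cause.

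Signals are given as log2 values, and the base was taken from their range. Precision is limited by the small number of arrays. The 340 olfactory receptor genes, silent in most tissues, served as a measure of background. Their 95th percentile lay between 7.24 and 8.03 on selected, 7.40 and 8.06 on stable, and 7.39 and 8.06 on parental arrays. Of 14 markers of serous ovarian epithelium, 12 lay above this level on all arrays, among them PAX8, WT1, MUC16 and EPCAM, while ESR1 and FOLR1 did not. Mean signal over the 14 markers was 10.45 to 10.74 on selected, 10.35 to 10.75 on stable and 10.49 to 10.62 on parental arrays. Single markers ran both ways in selected against parental arrays, with 9 of 14 above 0. MUC16 was at -0.88 (adjusted p = 0.0591, limma), MSLN at -0.56 (adjusted p = 0.0629) and EPCAM at 0.25 (adjusted p = 0.0627). Only 1 of 9 fibroblast markers (COL1A1), 1 of 9 leukocyte markers (TYROBP) and 1 of 6 endothelial markers (CLDN5) lay above background on all arrays, and no marker of the 4 lists was called in any of the comparisons without subline as a block. With the block CDH1, an epithelial adhesion gene, was higher in selected than in stable arrays, at 0.59 (adjusted p = 0.0384, limma), and its part in the results was not tested. RNA was measured in bulk, so a lower signal in all cells and fewer cells with the RNA cannot be told apart.

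Signal was at background for the pumps most often tied to multidrug resistance. ABCB1, ABCG2 and ABCC2 lay under the 95th percentile of the olfactory receptor genes on all 14 arrays, and the array nearest to it differed by -1.12 for ABCB1, -1.31 for ABCG2 and -0.88 for ABCC2. ABCA4 lay above it on 2 of 5 stable arrays and on 0 of 5 selected and 0 of 4 parental arrays. ABCC1 and ABCC3 lay above it on all 14 arrays, and ABCC4 and ABCC5 on 12 of 14. On each array ABCB1 ranked between the 41.8th and 56.5th percentile of the olfactory receptor genes and ABCG2 between the 26.8th and 45.0th.

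**Figure D1:**
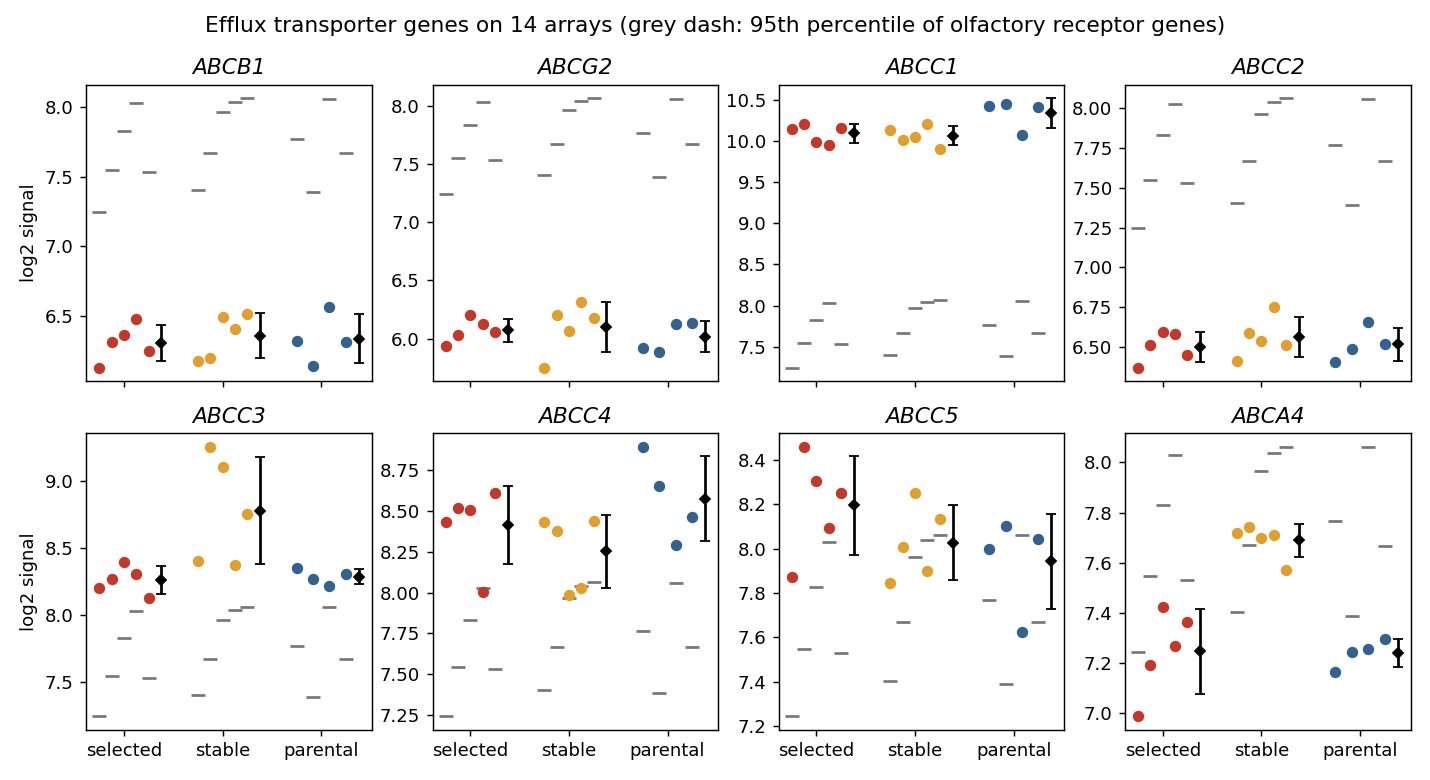
Log2 signal of the 8 measured transporter genes on selected (5), stable (5) and parental (4) arrays, 1 coloured point per array, with a black diamond for the mean and bars of 1 SD. Grey dashes give the 95th percentile of 340 olfactory receptor genes on the same array, and ABCB1, ABCG2 and ABCC2 lie under it on every array. Vertical axes differ between panels and do not start at 0.

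ABCB1 read 6.13, 6.31, 6.37, 6.48 and 6.25 on the selected arrays of R1, R3, R5, R6 and R7. It read 6.18, 6.19, 6.49, 6.41 and 6.51 on their stable arrays and 6.32, 6.14, 6.56 and 6.31 on parental replicates 1 to 4. The 3 groups overlapped, and no subline stood out. The difference was -0.03 (SE 0.10, adjusted p = 0.920, limma) for selected against parental and 0.02 (SE 0.11, adjusted p = 0.999) for stable against parental. The 95% intervals ended at a fold of 1.14 and 1.20, so larger rises in deposited signal lay outside them, although signal near background understates a change in RNA.

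ABCG2 averaged 6.07 ± 0.10 (SD, n = 5) on selected, 6.10 ± 0.21 (SD, n = 5) on stable and 6.01 ± 0.13 (SD, n = 4) on parental arrays. Its values ran from 5.94 to 6.20 on selected, 5.75 to 6.31 on stable and 5.88 to 6.13 on parental arrays, and the groups overlapped. Differences from parental were 0.06 (SE 0.08, adjusted p = 0.799) for selected and 0.08 (SE 0.11, adjusted p = 0.999) for stable arrays in limma. The upper ends of their intervals were folds of 1.18 and 1.26. ABCC2 (MRP2), the conjugate exporter of the bile canaliculus, ran from 6.37 to 6.59 on selected, 6.41 to 6.75 on stable and 6.40 to 6.65 on parental arrays. Its groups overlapped too, with differences of -0.017 (adjusted p = 0.945) and 0.045 (adjusted p = 0.999).

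The 3 pumps at background also followed the background signal of each array. Over 14 arrays, ABCB1 and the olfactory receptor mean had a Pearson r of 0.939 and a Spearman rho of 0.969 (permutation p = 1e-05 for both, the smallest that 100000 resamples can give, and 8e-05 adjusted over the 8 members). ABCG2 had r = 0.709 (permutation p = 0.00448, adjusted p = 0.0119) and rho = 0.648 (permutation p = 0.0147, adjusted p = 0.0392). For ABCC2 r was 0.709 (permutation p = 0.00401, adjusted p = 0.0119) and rho 0.675 (permutation p = 0.00981, adjusted p = 0.0392). Without the 2 arrays farthest from the median background, r was 0.914, 0.726 and 0.567, and within groups, from deviations about the group means, 0.951, 0.742 and 0.686. Selected and stable arrays share sublines, so the 14 arrays are not fully independent. For the other 5 members neither measure passed after adjustment, with r from -0.519 for ABCC4 to 0.371 for ABCA4. ABCC1 and ABCC4 ran opposite to background, with r of -0.676 and -0.532 within groups. Without the 2 arrays their r was -0.558 and -0.587. For ABCC3, ABCC5 and ABCA4 r within groups was 0.132, 0.021 and 0.283. The values of r within groups and without the 2 arrays were not tested for any member.

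**Figure D2:**
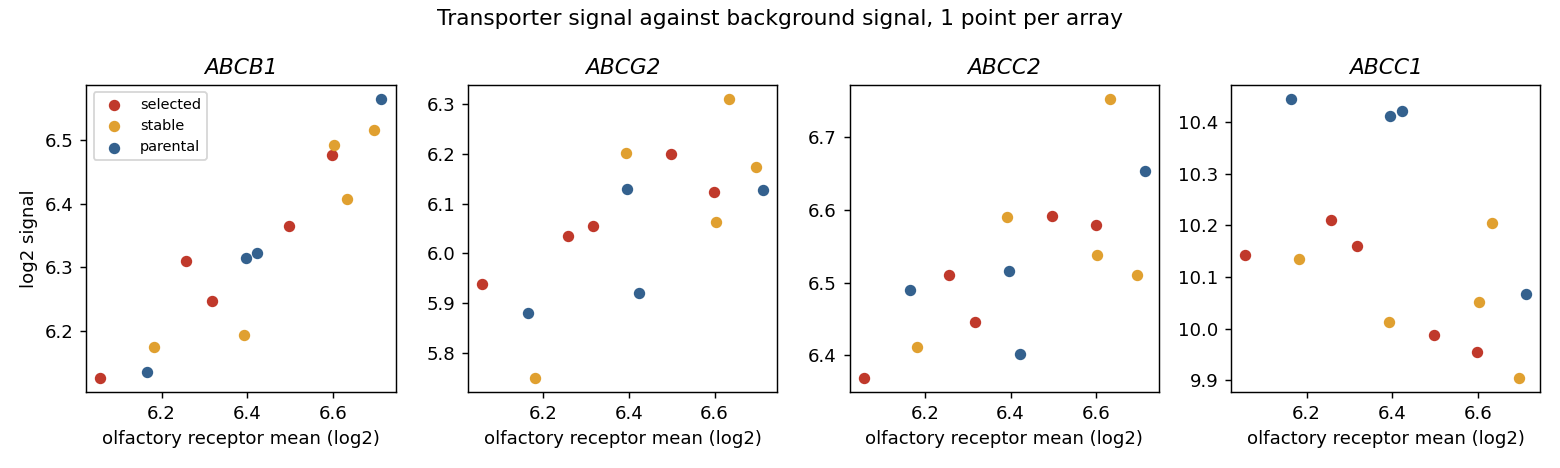
Log2 signal of ABCB1, ABCG2, ABCC2 and ABCC1 (vertical axes) against the mean of 340 olfactory receptor genes on the same array (horizontal axes, log2), with selected, stable and parental arrays in red, orange and blue. ABCB1 rises with the background mean across all groups (r = 0.939), while ABCC1, at r = -0.477, does not.

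The comparison of selected with parental arrays asks whether a pump is higher in resistant cells that grow in the inhibitor. None of the 8 members was higher or lower at an adjusted p under 0.05 in limma, where 6.92% of all genes were called, 5.03% higher and 1.89% lower. At an unadjusted p under 0.05 there was 1 member, ABCC1, among 8, beside 20.3% of all genes. The groups overlapped for all 8, while over all genes 6.81% were higher and 2.96% lower with no overlap. The median difference of the 8 was -0.022, against -0.013 over all genes.

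ABCC1 (MRP1), an exporter of glutathione conjugates and of several anticancer drugs, ranked at or above the 99.7th percentile of the olfactory receptor genes on every array. It read 10.14, 10.21, 9.99, 9.95 and 10.16 on the selected arrays of R1, R3, R5, R6 and R7. It read 10.14, 10.01, 10.05, 10.21 and 9.90 on the stable arrays and 10.42, 10.45, 10.07 and 10.41 on parental replicates 1 to 4. Every selected and stable array lay below parental replicates 1, 2 and 4, and parental replicate 3 lay inside the resistant range. The difference was -0.25 (SE 0.10, adjusted p = 0.161) for selected and -0.28 (SE 0.10, adjusted p = 0.645) for stable against parental arrays, both not called by limma. Without parental replicate 3 the difference of selected arrays was -0.34 (adjusted p = 0.0431). Parental replicate 3 had the highest olfactory receptor mean of the 14 arrays, 6.71, and the lowest parental signal of ABCC1, ABCC3, ABCC4 and ABCC5. Beyond these settings its part in the result was not tested. In no setting tried was ABCC1 higher than parental.

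ABCC5 (MRP5), an exporter of cyclic nucleotides and nucleotide analogs, had the largest positive difference of the 8 in selected cells and did not pass. It read 7.87, 8.46, 8.30, 8.09 and 8.25 on the selected arrays of R1, R3, R5, R6 and R7. The stable arrays read 7.84, 8.01, 8.25, 7.90 and 8.14, and parental replicates 1 to 4 read 8.001, 8.10, 7.63 and 8.04. R3, R5 and R7 lay above all parental arrays in inhibitor, R1 lay below 3 of the 4, and the groups overlapped. The difference was 0.25 (SE 0.13, 95% interval -0.03 to 0.53, adjusted p = 0.310) for selected and 0.08 (SE 0.12, adjusted p = 0.999) for stable against parental arrays (limma). Without parental replicate 3 the difference was 0.15 (adjusted p = 0.673) for selected and -0.02 (adjusted p = 0.989) for stable arrays. Within sublines the selected array was above the stable array in 5 of 5 pairs, by 0.027 to 0.45. The difference of selected against stable arrays did not pass either, at 0.17 without pairing (SE 0.12, adjusted p = 0.553). With subline as a block, which respects the pairs, it was 0.17 too (adjusted p = 0.280).

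ABCC4 (MRP4), an exporter of cyclic nucleotides and prostaglandins, read 8.43, 8.52, 8.51, 8.003 and 8.61 on the selected arrays of R1, R3, R5, R6 and R7. The stable arrays read 8.43, 8.37, 7.99, 8.03 and 8.43, and parental replicates 1 to 4 read 8.89, 8.65, 8.29 and 8.46. The arrays of R6 were low in both states and the groups overlapped. The differences of -0.16 (SE 0.14, adjusted p = 0.627) and -0.32 (SE 0.14, adjusted p = 0.797) from parental arrays were not called by limma. For selected arrays the difference was -0.06 both without parental replicate 1 (adjusted p = 0.891) and without the selected array of R6 (adjusted p = 0.815).

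**Figure D3:**
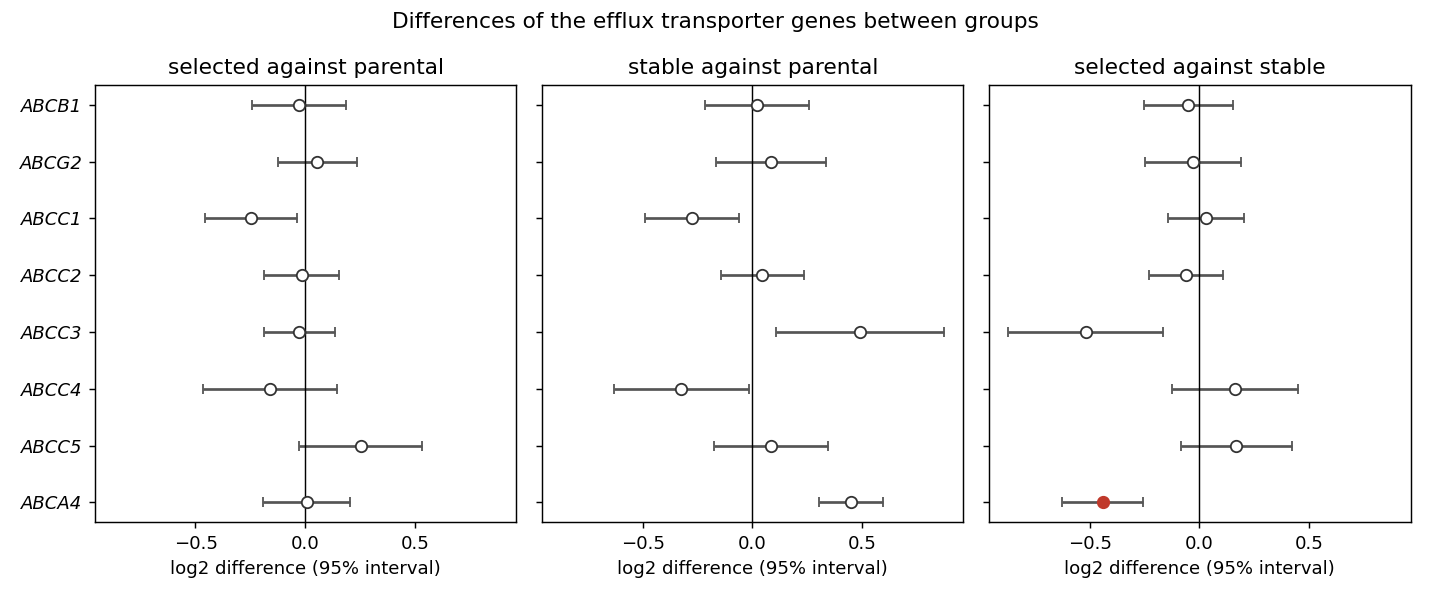
Log2 difference (points) with its 95% interval (bars) for the 8 members in selected against parental, stable against parental and selected against stable arrays. The filled red point passes an adjusted p of 0.05 in limma: ABCA4 at -0.44 in selected against stable arrays, while no member passes in either comparison with parental arrays.

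Stable against parental arrays asks whether a pump stays high after the inhibitor is gone. Again none of the 8 members was called in either direction by limma, and over all genes 0% were called higher and 0.00544% (1 gene) lower. At an unadjusted p under 0.05 there were 4 of 8 members, beside 6.09% of all genes, with ABCC3 and ABCA4 above and ABCC1 and ABCC4 below parental. ABCC3 and ABCA4 also lay higher on all 5 stable arrays than on all 4 parental arrays, a pattern shared by 0.826% of all genes, and no member was lower without overlap (1.42% of all genes). ABCA4 was among the genes already known to stand out in these data when the members were chosen, so these counts are a description.

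ABCA4 read 7.72, 7.74, 7.70, 7.71 and 7.57 on the stable arrays of R1, R3, R5, R6 and R7. It read 6.99, 7.19, 7.42, 7.27 and 7.36 on their selected arrays and 7.16, 7.24, 7.26 and 7.30 on parental replicates 1 to 4. ABCA4 lay under the 95th percentile of the olfactory receptor genes on 5 of 5 selected, 3 of 5 stable and 4 of 4 parental arrays, so its differences are between signals at or near background and may understate a change. All 5 stable arrays lay above every selected and every parental array, and selected and parental arrays overlapped. In limma ABCA4 was lower in selected than in stable arrays, at -0.44 (SE 0.08, 95% interval -0.63 to -0.26, adjusted p = 0.0260), with differences of -0.73 to -0.21 in the 5 pairs. ABCA4 was known to stand out in these data when the members were chosen, so this call is a description too. Stable against parental arrays gave 0.45 (SE 0.07, adjusted p = 0.0818) and did not pass, and selected against parental arrays gave 0.007 (SE 0.09, adjusted p = 0.981). The call of selected against stable arrays ended without the selected array of R3 (adjusted p = 0.0734) or R7 (0.0554), or without the stable array of R5 (0.0681), R6 (0.0599) or R7 (0.0538). In all 5 pairs the olfactory receptor mean was likewise below that of the stable array, with differences of -0.38 to -0.035, and with it as a covariate the difference of ABCA4 was -0.41 (adjusted p = 0.0328). With subline as a block and the same covariate it was -0.57 (adjusted p = 0.535), and without subline R7 it was -0.50 (adjusted p = 0.0993), so both settings ended the call.

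ABCC3 (MRP3), an exporter of bile salts and glucuronides at the basolateral membrane, showed a rise without inhibitor that was not called. The size of the rise varied over sublines, each with a single stable array, and this was not tested. The F test between sublines, over both states, gave ABCC3 an adjusted p of 0.433 (limma). Stable arrays of ABCC3 read 9.25 in R3, 9.11 in R5 and 8.75 in R7, but 8.40 in R1 and 8.37 in R6. The selected arrays read 8.20, 8.27, 8.40, 8.31 and 8.12 in R1, R3, R5, R6 and R7, and parental replicates 1 to 4 read 8.35, 8.27, 8.22 and 8.31. Stable arrays lay above all parental arrays, by a wide margin in R3 and R5 and a narrow margin in R1 and R6. The limma difference was 0.49 (SE 0.17, adjusted p = 0.640) for stable against parental arrays. It was -0.52 (SE 0.16, adjusted p = 0.130) for selected against stable arrays, below 0 in 5 of 5 pairs, and passed only without the stable array of R1, at -0.61 (adjusted p = 0.0467). With subline as a block, which respects the pairs, it was -0.52 and close to the threshold (adjusted p = 0.0557). Block and olfactory receptor covariate together gave -0.36 (adjusted p = 0.767). Selected arrays did not differ from parental arrays beyond their spread, at -0.03 (SE 0.07, adjusted p = 0.896).

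**Figure D4:**
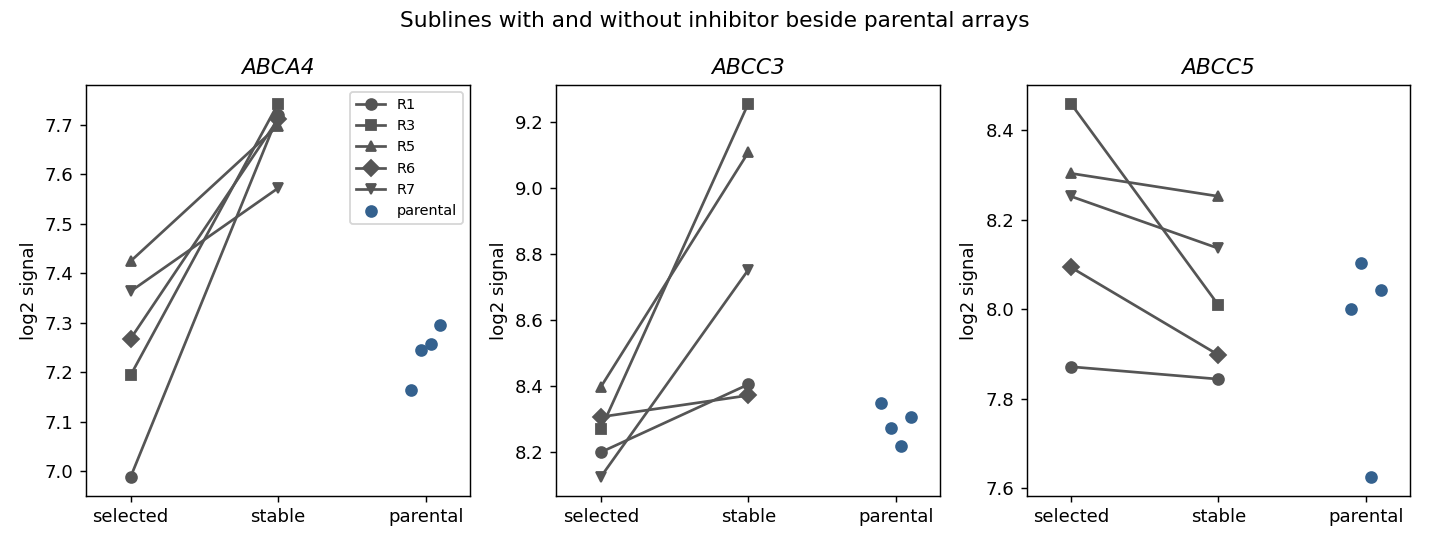
Log2 signal of ABCA4, ABCC3 and ABCC5 on selected and stable arrays, joined by a line within each of the 5 sublines, with the 4 parental arrays in blue. ABCA4 lies between 7.57 and 7.74 on the stable arrays, above all other arrays, and ABCC3 runs from 8.37 to 9.25 there.

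For selected against stable arrays as a whole, 0 of 8 members were higher and 1, ABCA4, lower, where 2.16% of all genes were called, 1.54% higher and 0.614% lower. ABCA4 was also the 1 member lower without overlap (1.33% of all genes), and none was higher without overlap (2.83%). With subline as a block the members called were likewise 0 higher and 1 lower. Since ABCA4 was known to stand out when the members were chosen, these counts are a description. At an unadjusted p under 0.05 there were 2, ABCC3 and ABCA4, beside 15.3% of all genes. ABCB1 differed by -0.05 (SE 0.09, adjusted p = 0.853), ABCG2 by -0.03 (SE 0.10, adjusted p = 0.928) and ABCC1 by 0.03 (SE 0.08, adjusted p = 0.907).

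The sublines were next taken singly, since resistance acquired separately could involve a pump in a single subline. Each subline, as the mean of its selected and stable array, was set against the parental arrays in a fit of all 14 arrays. No member was called in any of the 5 sublines, where 0.12% of all genes were higher and 0.0761% lower for R3, 0.0217% higher and 0.038% lower for R5, and 0% either way for R1, R6 and R7. The smallest p was that of ABCC4 in R6, a difference of -0.56 (SE 0.17, unadjusted p = 0.0055, adjusted p = 0.355, limma). The highest differences were those of ABCC3 in R3, at 0.48 (SE 0.26, adjusted p = 0.639), and in R5, at 0.47 (SE 0.26, adjusted p = 0.917). ABCB1 lay between -0.18 in R1 and 0.11 in R6, and ABCG2 between -0.17 in R1 and 0.20 in R6. In the F test between sublines, which called 0.12% of all genes, the members had adjusted p from 0.287 (ABCC4) to 0.958 (ABCC1).

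The genes most like ABCC3, ABCC4 and ABCA4, the members that varied most over the 14 arrays, were named by Pearson r, as a description. For ABCC3 they were ADAMTS5 (0.916), IFI35 (0.894) and TSPAN11 (0.890), and SYT1 (0.937), C2CD5 (0.933) and ADAMTS5 (0.928) after the olfactory receptor mean was regressed out. For ABCC4 they were ENTR1 (0.865), FSD1 (0.851) and TWNK (0.843), and CTAGE7P (0.890), ENTR1 (0.851) and ZNF676 (0.828) after that step. For ABCA4 they were WT1-AS (0.874), WDR89 (0.850) and CARD8 (0.827), and SNX19 (0.927), ZCCHC8 (0.898) and HSPA8 (0.893) after it.

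Of 16 measured regulators of efflux pump genes, 5 were higher in selected than in parental arrays and 0 lower. The shares over all genes were 5.03% higher and 1.89% lower. The median difference of the 16 was 0.11, against -0.013 over all genes. This list and those that follow were chosen with earlier results of these data known, so their counts are a description. AHR, the receptor of aromatic xenobiotics, averaged 9.58 ± 0.35 (SD, n = 5) on selected and 8.93 ± 0.21 (SD, n = 4) on parental arrays, a difference of 0.65 (SE 0.17, adjusted p = 0.0384, limma). NFE2L2, the gene of the antioxidant regulator NRF2, averaged 11.45 ± 0.25 (SD, n = 5) on selected and 10.92 ± 0.15 (SD, n = 4) on parental arrays, a difference of 0.54 (SE 0.12, adjusted p = 0.0250). PPARG, a lipid-sensing nuclear receptor, rose by 0.60 (adjusted p = 0.0360), and the hypoxia factors EPAS1 and HIF1A by 0.53 (adjusted p = 0.0377) and 0.35 (adjusted p = 0.0402). In stable against parental arrays 0 of the 16 were called, and in selected against stable arrays PPARG alone was, at 0.75 (SE 0.13, adjusted p = 0.0195), a call lost in 5 of 22 settings. PPARG lay above the 95th percentile of the olfactory receptor genes on 4 of 5 selected, 1 of 5 stable and 0 of 4 parental arrays. The 5 calls against parental arrays did not hold in all settings, since AHR lost its call in 8 of 20, NFE2L2 in 6 of 20, HIF1A in 9 of 20, EPAS1 in 10 of 20 and PPARG in 8 of 19.

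Among 22 measured genes of glutathione metabolism and conjugation, 4 rose in selected against parental arrays and 0 fell. Over all genes 5.03% were higher and 1.89% lower. Some of the genes in this list supply substrates of the ABCC pumps. MGST3, a microsomal glutathione transferase, averaged 11.83 ± 0.11 (SD, n = 5) on selected and 11.12 ± 0.11 (SD, n = 4) on parental arrays, and no selected array overlapped a parental one. Its difference was 0.71 (SE 0.08, adjusted p = 0.00109, limma). UGT8, a galactosyltransferase of sphingolipids, rose by 0.57 (adjusted p = 0.00263), GSR, glutathione reductase, by 0.48 (adjusted p = 0.0122) and MGST2 by 0.38 (adjusted p = 0.0274, lost in 5 of 20 settings). The glutathione synthesis genes GCLC and GCLM, at 0.33 (adjusted p = 0.210) and 0.46 (adjusted p = 0.0852), did not pass. None of the 22 was called in stable against parental arrays. In selected against stable arrays MGST3 was higher by 0.43 (adjusted p = 0.0332) and UGT8 by 0.37 (adjusted p = 0.0339), calls lost in 12 and 14 of 23 settings, and with subline as a block 3 were higher, NQO1 among them at 0.39 (adjusted p = 0.0404), and 2 lower, GSTM3 at -0.57 (adjusted p = 0.0294) and GSTA1 at -0.39 (adjusted p = 0.0361).

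Genes listed for the uptake and exchange of drugs and metals moved both ways in selected cells, with 3 of 22 higher and 2 lower than in parental arrays. Beside carriers, the list held the ATPases ATP7A and ATP7B, and MVP, which is not a carrier. The shares over all genes were 5.03% higher and 1.89% lower. The copper importer SLC31A1 averaged 11.04 ± 0.11 (SD, n = 5) on selected and 10.41 ± 0.24 (SD, n = 4) on parental arrays, a rise of 0.62 (SE 0.11, adjusted p = 0.00738, limma). ATP7A, a copper export ATPase, rose by 0.58 (adjusted p = 0.0159) and SLC22A5, the carnitine carrier, by 0.38 (adjusted p = 0.0170). The nucleoside carrier SLC29A2 averaged 9.31 ± 0.07 (SD, n = 5) on selected and 9.93 ± 0.08 (SD, n = 4) on parental arrays, with a difference of -0.62 (SE 0.07, adjusted p = 0.00101). SLC29A1, the related carrier, had a difference of -0.31 (adjusted p = 0.0423), lost in 11 of 20 settings. In stable against parental arrays 0 of the 22 were called. Selected against stable arrays gave SLC31A1 at 0.46 and SLC22A5 at 0.37 as higher and SLC29A2 at -0.77 as lower (adjusted p = 0.0243, 0.0412 and 0.0150). These calls were lost in 8, 14 and 2 of 23 settings, and with subline as a block ATP7A too was higher, at 0.67 (adjusted p = 0.0495).

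Of 37 measured other ABC genes, of 39 listed, 1 was higher in selected than in parental arrays and 0 lower, a share no larger than the 5.03% called higher over all genes. This was ABCB9, a peptide transporter of the lysosome, with 8.11 ± 0.08 (SD, n = 5) on selected and 7.80 ± 0.09 (SD, n = 4) on parental arrays, a difference of 0.31 (SE 0.07, adjusted p = 0.0276, limma), lost in 6 of 20 settings. ABCB9 was also higher in selected than in stable arrays, by 0.37 (SE 0.07, adjusted p = 0.0253), the only gene of the 37 called there. That call was lost in 8 of 23 settings, 5 of them with a single array left out. None of the 37 was called in stable against parental arrays, where TAP1, a peptide transporter of antigen presentation, was at 0.32 (adjusted p = 0.448). Of 8 measured membrane partners of pumps, RDX (radixin), known to anchor ABCC2 in liver, rose by 0.32 in selected against parental arrays (adjusted p = 0.0434), a call lost in 12 of 20 settings, and the other 7 were not called.

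ABCB1 is often gained together with genes beside it on chromosome 7, so 10 such neighbours were examined, all within 6 protein-coding genes of ABCB1. In selected against parental arrays 3 rose and 0 fell, beside 5.03% of all genes higher and 1.89% lower. CROT, a peroxisomal carnitine transferase gene 2 genes from ABCB1, averaged 7.39 ± 0.22 (SD, n = 5) on selected and 6.74 ± 0.09 (SD, n = 4) on parental arrays, a rise of 0.66 (SE 0.11, adjusted p = 0.00535, limma). CROT lay above the background level on 2 of 5 selected and 0 of 4 parental arrays, so this size is between signals at or near background. TMEM243 rose by 0.51 (adjusted p = 0.00983) and SLC25A40, a mitochondrial carrier, by 0.52 (adjusted p = 0.0261, lost in 7 of 20 settings). The genes directly beside ABCB1 did not pass, with ABCB4 at -0.0045 (adjusted p = 0.984) and RUNDC3B at 0.03 (adjusted p = 0.901). ABCB4, RUNDC3B and DBF4 lay above the background level on 0 of 14 arrays, where a gain may not be visible. DMTF1, at 0.10 (adjusted p = 0.630), DBF4, at 0.07 (adjusted p = 0.786), and SRI, at -0.20 (adjusted p = 0.322), did not pass either. Nor did ADAM22, at -0.11 (adjusted p = 0.634), or STEAP4, at -0.26 (adjusted p = 0.119). STEAP4 was lower on every selected than on every parental array, as were 2.96% of all genes. Its mean signals, 6.32 on selected and 6.58 on parental arrays, lay under the background level. In stable against parental and selected against stable arrays 0 of the 10 were called. Of 8 measured genes around ABCC1 on chromosome 16, 2 rose in selected against parental arrays, NTAN1 by 0.77 (adjusted p = 0.00615) and NDE1 by 0.61 (adjusted p = 0.0140), and 0 fell. Over all genes 5.03% were higher and 1.89% lower. NTAN1 lies 10, PDXDC1 11 and NDE1 3 protein-coding genes from ABCC1. The other 6 were not called, among them CEP20 (1 gene away, 0.03), MYH11 (2 away, -0.0085) and MARF1 (4 away, 0.11). ABCC1 itself was at -0.25 and not called. In selected against stable arrays 2 were higher, NTAN1 by 0.64 (adjusted p = 0.0310) and PDXDC1, which has partial copies nearby and is uncertain, by 0.34 (adjusted p = 0.0195). The NTAN1 call was lost in 10 and the PDXDC1 call in 8 of 23 settings. With subline as a block NDE1 was called as well, at 0.48 (adjusted p = 0.0445).

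**Figure D5:**
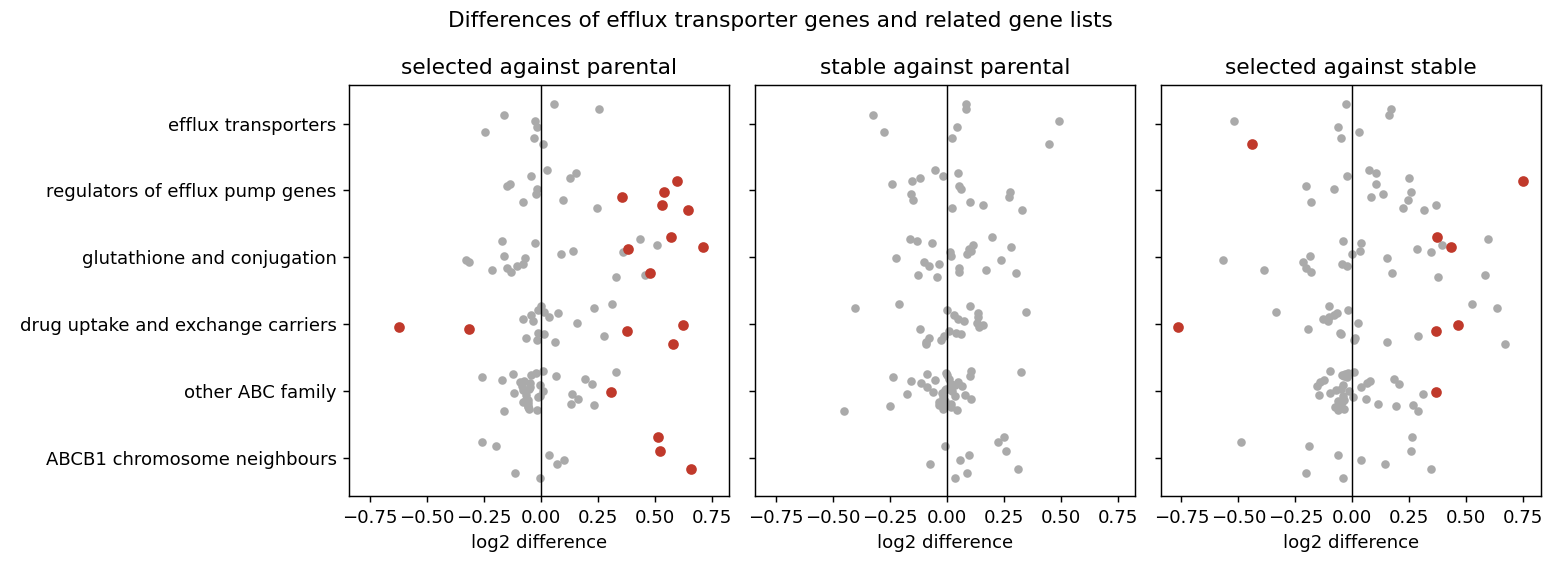
Log2 difference of each gene (1 point per gene) in the 8 efflux transporters and 5 related gene lists for the 3 comparisons, with genes at an adjusted p under 0.05 in limma in red. In selected against parental arrays, 5 of 16 regulators are red at 0.35 or more and 0 of 8 transporters are red, beside 6.92% of all genes called. In stable against parental arrays no gene shown is red. The lists were chosen with earlier results of these data known, so the counts are a description.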

How the data were processed

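The deposited table holds log2 signal of 32295 rows on 14 Affymetrix arrays, with base 2 taken from the range of the values. How the authors corrected background, normalized and summarised is not given in the sources used here. Array medians lay between 7.54 and 7.68. The platform annotation names 1 gene for 19148 rows, several for 1376 and none here for 11771, and 19118 of the named rows were updated by gene ID through RefSeq (GRCh38.p14). For 633 genes with several rows the row of highest mean was kept, giving 18398 genes.

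Groups were taken from the labels. Linear models were fitted with limma 3.58.1 (R 4.3.3; eBayes moderation, two-sided, Benjamini-Hochberg over all genes, threshold 0.05), with 9 arrays against parental, 10 for selected against stable and 14 for sublines. Fits were tested on simulated data. Selected and stable arrays pair by subline, since both come from the same cells. The correlations of paired deviations were 0.636 (R1), 0.050 (R3), 0.371 (R5), 0.546 (R6) and -0.468 (R7). Subline was a block only in alternatives. Correlations with background used 100000 permutations (scipy 1.17.1), and figures matplotlib 3.10.9.

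Members and lists were chosen with earlier results of these data known. Named genes are the members, called list genes, list genes of smallest p, and the 3 genes most like each of the 3 most variable members. Alternatives covered normalization, filters, rows, variance, weights, background, pairing and arrays left out.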

Additional observations from a re-analysis of the deposited data

Results flagged for a closer look

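Single arrays stood far from the rest of their group in 6 of 90 groups examined for the 8 members and 22 called list genes, and chance flags about 1 group in 20. ABCC1 on parental replicate 3 read 10.07, against 10.41 to 10.45 on the other parental arrays, and this array also had the highest olfactory receptor mean. ABCC4 read 8.003 on the selected array of R6, against 8.43 to 8.61 on the others. ABCA4 read 7.57 on the stable array of R7, against 7.70 to 7.74. ABCB9 read 8.25 on the selected array of R3, against 8.07 to 8.08. On the selected array of R7, CROT read 7.77, against 7.25 to 7.39, and TMEM243 read 9.32, against 8.98 to 9.05.

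The differences from parental cells in selected and in stable arrays were unlike each other, by the limma test of selected against stable arrays, for ABCA4 (-0.44) and for 9 list genes. These were SLC29A2 (-0.77), PPARG (0.75), NTAN1 (0.64), SLC31A1 (0.46), MGST3 (0.43), UGT8 (0.37), SLC22A5 (0.37), ABCB9 (0.37) and PDXDC1 (0.34). Without subline R7 limma called 0 genes in this comparison. With single arrays left out, SLC29A2 lost its call in 0 of 10 cases, PPARG in 3, PDXDC1 in 4, ABCA4, ABCB9 and SLC31A1 in 5, NTAN1 in 7, and MGST3, UGT8 and SLC22A5 in 8. ABCA4 and PPARG lay above the background level on 2 and 5 of 14 arrays.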

How the results depend on the processing

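The number of arrays limits precision, 3 members lay at background on all arrays and ABCA4 on 12 of 14, and signal there understates a change. In selected against parental arrays 0 members were higher in 21 of 21 alternatives, and 1 member, ABCC1, was lower with quantile normalization (-0.33), array weights (-0.31) and the olfactory receptor covariate (-0.29), and in 0 to 1 members with single arrays left out. The alternatives are not all separate. Against parental arrays, leaving out R7 and leaving out its 1 array are the same fit, counted as 2 settings here and among lost calls. A limit on size cannot add to a count of 0, and the filter leaves out some members. In stable against parental arrays 0 members were lower in 21 of 21, and 1, ABCA4, was higher with array weights (adjusted p = 0.00934) and the olfactory receptor covariate (adjusted p = 0.0282), with 0 and 0 when single arrays were left out. In selected against stable arrays 0 members were higher in 24 of 24. The count of lower members, 1, went to 0 with the filter at the 40th percentile, which leaves out ABCB1, ABCG2, ABCC2 and ABCA4, without R7, without R7 with subline as a block (added after the data were seen), with the block and the covariate together, and at a log2 difference of at least 0.5, and to 0 to 2 with single arrays left out. ABCA4 was -0.50 without R7 (adjusted p = 0.0993) and -0.57 with block and covariate (adjusted p = 0.535). With the subline block alone it was -0.44 (adjusted p = 0.0321), and the block changed no other call on a member. At the 99th percentile of the olfactory receptor genes 1 member, ABCC1, in place of 2 lay above background on all arrays. The cause of these changes was not tested.

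Genes called in selected against parental arrays were 2318 with the covariate, 621 without R7, 582 at a difference of at least 0.5, and 517 to 1343 with single arrays left out, where leaving out parental replicate 1 gave 735, parental replicate 4 gave 517, selected R3 gave 818 and selected R7 gave 621. In stable against parental arrays they were 2 with quantile normalization or median centring, 4 with the filter, 5 with trended variance, 286 with weights, 8 in a fit of all 14 arrays, 7 with subline as a random block, 75 with the covariate, and 1 to 26 with single arrays left out (2 without parental replicate 3, 26 without stable R1 and 2 without stable R3). In selected against stable arrays they were 1480 with weights, 680 in a fit of all 14 arrays, 906 with the block, 0 without R7 (159 with the block), 0 with block and covariate, 201 at a difference of at least 0.5, and 86 to 962 with single arrays left out (selected R1, R3, R5, R6 and R7 gave 195, 86, 228, 248 and 97, and stable R1, R5, R6 and R7 gave 962, 104, 152 and 102). Calls in R3 were 72 with quantile normalization, 22 with centring, 60 with trended variance and 101 with the covariate, in R5 17 with quantile normalization and 23 with the covariate, in R6 2 with quantile normalization, 7 with the filter, 5 with the mean of rows and 4 with trended variance, and in R7 2 with centring, the filter, the mean of rows or trended variance. Between sublines they were 0 with quantile normalization or the covariate, 8 with centring and 584 with trended variance.

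Members near 0, none of them called, changed sign. In selected against parental arrays ABCB1 was 0.019 with weights and 0.024 with the covariate (-0.0945 to 0.0476 with single arrays left out), ABCC2 0.0078 with quantile normalization, 0.041 with weights and 0.012 with the covariate (-0.0543 to 0.0298), ABCC3 0.0061 without R7 (-0.0620 to 0.0061) and ABCA4 -0.0071 with centring and -0.022 without R7 (-0.0372 to 0.0719). In stable against parental arrays ABCB1 was -0.035 with the covariate and -0.018 without R7 (-0.0437 to 0.0984), ABCC2 ran from -0.0030 to 0.0912 and ABCC5 from -0.0209 to 0.1383 with single arrays left out. In selected against stable arrays ABCB1 was 0.050 with the covariate, 0.0031 without R7 with or without the block and 0.091 with block and covariate. ABCG2 was 0.010 with quantile normalization, 0.063 with the covariate and 0.0008 with block and covariate (-0.1169 to 0.0232). ABCC1 was -0.058 with quantile normalization, -0.0043 with centring, -0.018 with the covariate, -0.028 without R7 with or without the block and -0.17 with block and covariate (-0.0106 to 0.0647).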
